A study of Mus musculus with 44 samples.

Results

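Zinc finger genes of 4 name families were followed in single mouse cells sorted as osteomacs, the macrophages that live on bone surfaces. They are the rows of the deposited table whose symbol begins with Zfp, Zbtb, Zc3h or Klf followed by a digit, with Zfp36 left out. This gave 63 of the 3613 genes listed, of which 51 are Zfp, 8 Zbtb, 2 Zc3h and 2 Klf genes. The rule itself goes by name, but it was set with earlier results of these data known. Why Zfp36 was left out is not stated, and its values are given below. All 63 were found in the mouse annotation. It holds 468 protein-coding genes with such names, Zfp36 included, of which 64 (13.7%) are listed, against 15.7% of its 21924 protein-coding gene names. How the authors chose the listed genes is not stated.

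Neonatal calvarial cells of C57BL/6J mice were cultured for 16 h, 100000 at a time, either alone or together with 50000 megakaryocytes. Cells positive for CD45 and F4/80 and negative for CD41 were then sorted and captured on a C1 chip. The 20 cells labelled as cultured with megakaryocytes, here with-MK cells, are from plate 7, and the 24 labelled as cultured without, here without-MK cells, are from plate 3. Against that treatment field, the titles of these 24 cells name megakaryocytes too. Plate, capture and treatment cannot be told apart. No culture or animal is named, so each group counts as 1 sample, no test between groups was possible, and the values describe these cells. Values for with-MK cells come first in every pair.

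The without-MK cells went against the label of CD45-positive macrophages. Ptprc, which encodes CD45, was read in 20 of 20 and 1 of 24 cells, with 8206 reads and 1 read in all. Of 17 macrophage marker genes 16 are listed, and their summed level had a median of 26047 CPM (reads of a gene × 1000000 / library reads of the cell), from 4051 to 61111, against 11.6 CPM, from 0 to 176. Of 16 osteoblast and fibroblast markers 7 are listed, with a summed median of 11.2 CPM, from 3.88 to 196, against 10051 CPM, from 4276 to 98080. Of 12 megakaryocyte markers only Pf4 is listed, with a read in 16 and 5 cells and a median of 183 CPM, from 0 to 8749, against 0 CPM, from 0 to 4.55. Of 8 neutrophil markers 2 are listed, S100a8 with 2094 and 22 reads and S100a9 with only 14 and 5, so their sum is mostly S100a8. That sum had a median of 5.01 CPM, from 0 to 1181, against 0 CPM, from 0 to 37.7. With so few genes listed, the megakaryocyte and neutrophil lists cannot tell whether such cells were present. None of the endothelial or lymphoid markers is listed. Each difference below therefore stands beside this difference in marker content, and what part it plays was not tested. Median depth was 834834 library reads (69181 to 1212604) and 527930 library reads (270537 to 714465) per cell, and listed genes with a read per cell had a median of 2054 (1247 to 2533) and 2492 (1946 to 2837). Among with-MK cells, numbers 11 and 16 had only 69181 and 71585 library reads.

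A zinc finger is a short protein fold held by a zinc ion. Most Zfp genes encode DNA-binding proteins with arrays of C2H2 fingers, many of which carry a KRAB domain that recruits the corepressor TRIM28 to silence repeats and nearby genes, and these genes often sit in tandem arrays. Zbtb proteins join C2H2 fingers to a BTB domain that pairs the protein and recruits corepressors, and several steer blood cell lineages. Klf proteins end in C2H2 fingers that bind GC-rich promoter boxes and regulate growth and activation in many cell types, macrophages among them. Zc3h names, and Zfp36l2 among the Zfp names, denote CCCH fingers, which mostly bind RNA. The name rule also takes in Zbtb8os, which encodes archease, an RNA ligation factor named only for lying beside Zbtb8a.

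The Zfp genes were read in fewer with-MK cells and mostly at a lower pooled level, while Klf6 and Klf13 were read in every cell of both groups. Over all 63 genes, the share of cells with at least 1 read was lower in with-MK cells for 56 genes, equal for 2 and higher for 5. Of all listed genes with a read, 68.4% had a lower and 25.1% a higher share in with-MK cells. The 5 with a higher share were Zfp516, Zbtb7b, Zfp90, Zfp772 and Zfp287, and the 2 equal ones were Klf6 and Klf13. The median gene had a read in 25% and 62.5% of the cells, against 60.0% and 79.2% over all listed genes. By family the medians were 20.0% and 50% for Zfp, 40% and 62.5% for Zbtb, 82.5% and 91.7% for Zc3h, and 100% and 100% for Klf genes. With each cell thinned to 270000 reads, which leaves 18 and 24 cells, the counts were 55 lower, 3 equal and 5 higher, beside 67.8% lower and 24.7% higher over all listed genes. The lower detection thus stood in these thinned cells as well, although with-MK cells have the deeper libraries.

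**Figure D1:**
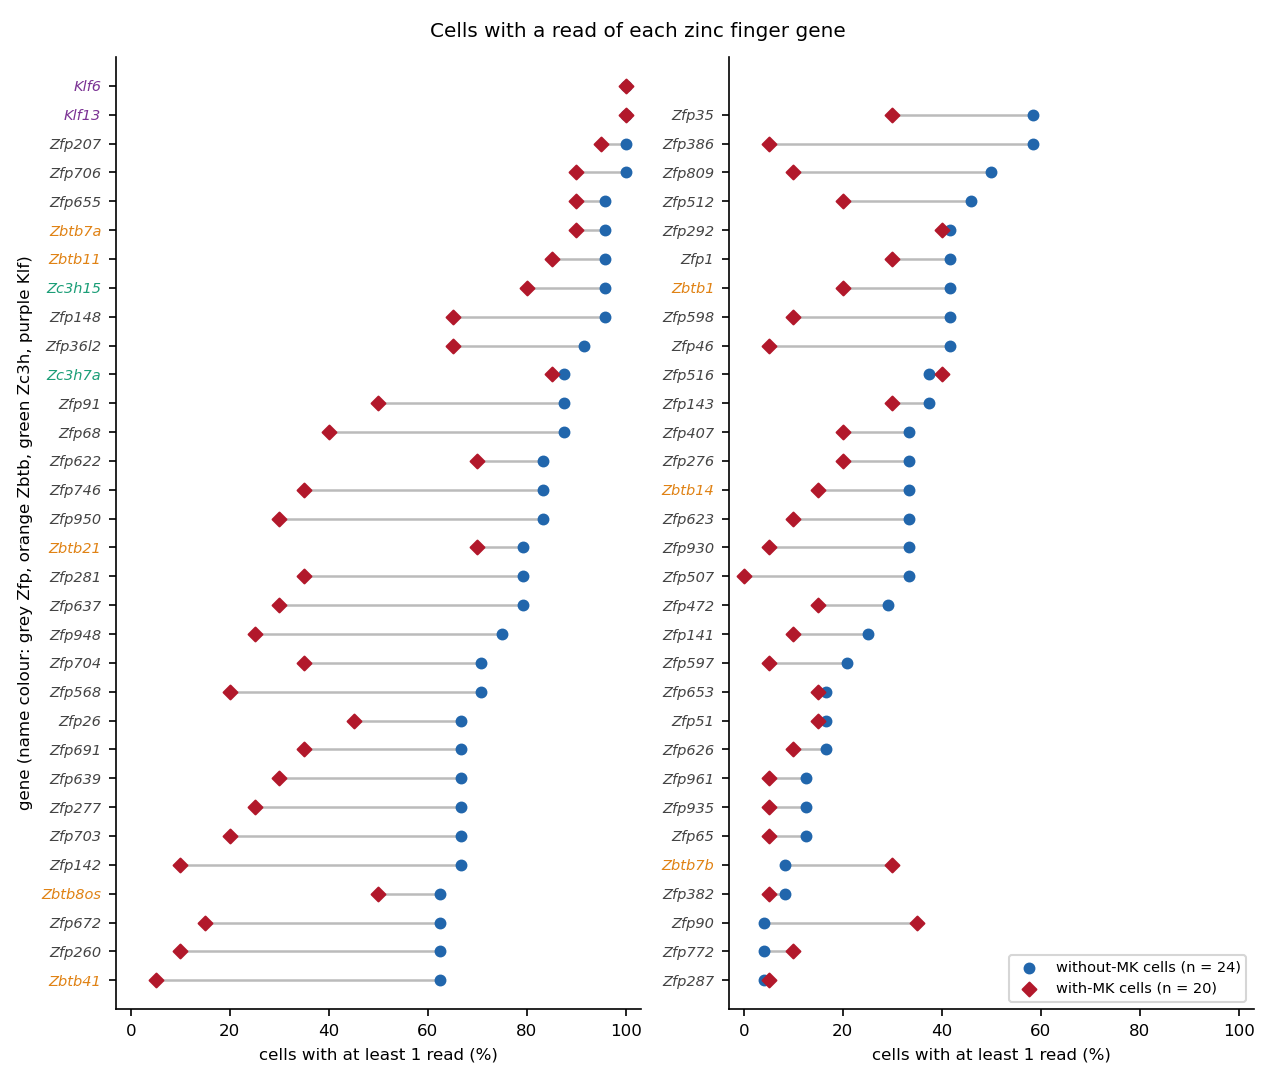
Percent of cells with at least 1 read (x axis) of each of the 63 genes (y axis), with-MK cells as red diamonds (n = 20) and without-MK cells as blue circles (n = 24), joined by a grey line; the right panel continues the order of the left. The red diamond lies to the left of the blue circle for 56 genes, and both lie at 100% for Klf6 and Klf13.

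The pooled level of a gene is its reads summed over the cells of a group, × 1000000 / the library reads of that group. A gene is called higher or lower where the pooled level differs by at least 2-fold and the mean over cells of log2(CPM + 1) differs in the same direction. By this rule 3 of the 63 genes were higher (4.76%) and 32 lower (50.8%) in with-MK cells, and 28 were neither. Over the 3569 genes with enough reads for the rule, 23.4% were higher and 28.9% lower. All 3 higher genes and 31 of the 32 lower ones are Zfp genes, so 5.88% of the 51 Zfp genes were higher and 60.8% lower. Among the 8 Zbtb genes 1 was lower and 0 higher, and neither the 2 Zc3h nor the 2 Klf genes were called. On the log2 scale the median pooled ratio was −1.06 over the 63 genes and −0.12 over all genes. It was −1.52 for Zfp, 0.55 for Zbtb, −0.30 for Zc3h and 0.75 for Klf genes. In mean log2(CPM + 1) over cells, which the rule also uses, the genes lay near all others: the median difference was −1.01 over the 63 genes, −1.15 for Zfp genes and −0.95 over all genes. At 4-fold, 1 gene was higher and 23 were lower, beside 15.7% and 14.8% of all genes.

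**Figure D2:**
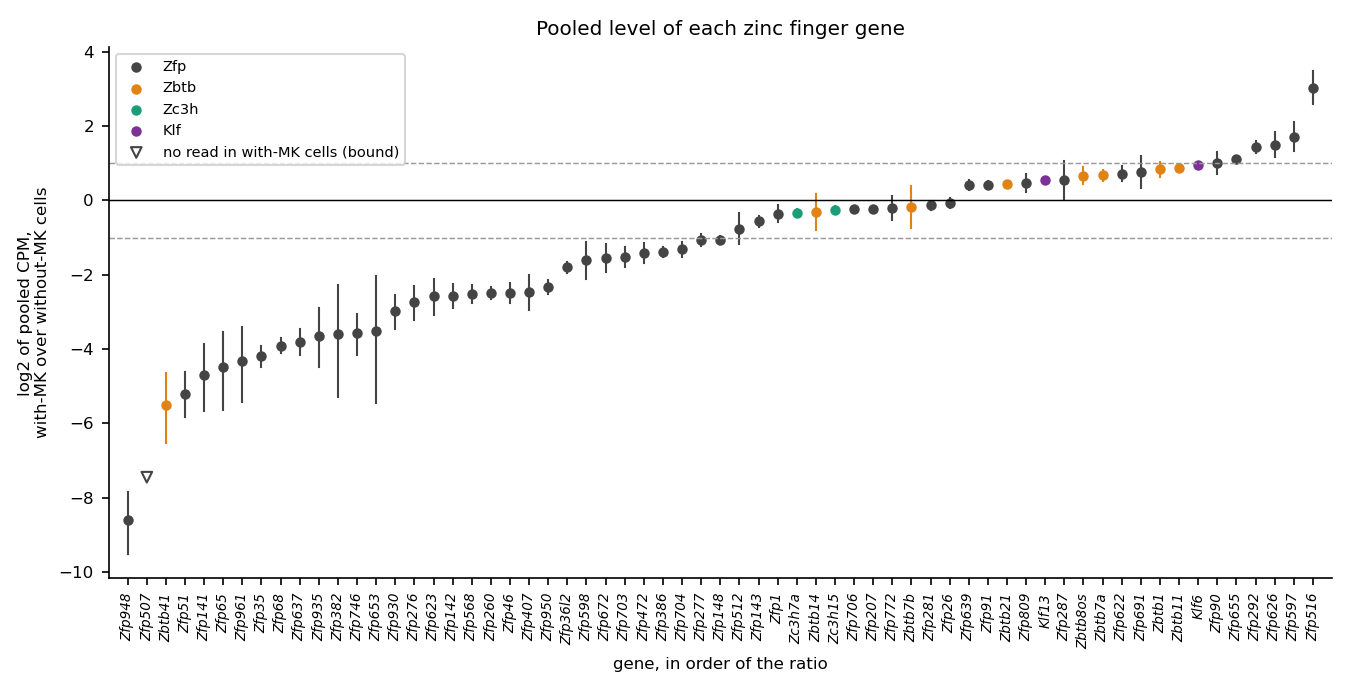
Log2 of the pooled CPM in with-MK over without-MK cells (y axis) for each of the 63 genes in order of that ratio (x axis), coloured by name family; bars are exact 95% counting intervals, dashed lines mark 2-fold, and the open triangle is a bound for the gene with no with-MK read. The ratios run from −8.62 for Zfp948 to 3.02 for Zfp516, with 44 genes below and 19 above an equal level.

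Of the lower Zfp genes, Zfp948 had the widest difference. It encodes a C2H2 protein and lies on chromosome 17, 21567008 to 21588699, plus strand (coordinates here are mm10, that is GRCm38). Its level per with-MK cell was 0 at the lowest, 0 at the median and 14.0 CPM at the highest, against 0, 116 and 2722 CPM per without-MK cell. Reads were present in 5 of 20 (25%, exact interval 8.66% to 49.1%) and 18 of 24 cells (75.0%, 53.3% to 90.2%). In 4 of those 5 with-MK cells it had 3 reads or fewer. The sums were 13 reads (7 to 22) and 4049 reads (3925 to 4176), a pooled level of 0.831 and 326 CPM, which is 392-fold lower (229 to 737.5) in with-MK cells. With-MK cell 2 held 61.5% of those 13 reads, and without the top cell of each group the pooled level was 752-fold lower. Intervals cover counting error only, since reads without molecular identifiers are not independent molecules.

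Zfp68, on chromosome 5, and Zfp637, on chromosome 6, also encode C2H2 proteins. Zfp68 per cell ran from 0 through a median of 0 to 194 CPM in with-MK cells, and from 0 through 88.5 to 3161 CPM in without-MK cells. It had a read in 8 and 21 cells, and its pooled level of 14.9 against 224 CPM was 15.0-fold lower (13.1 to 17.2). Without-MK cell 9 alone held 47.8% of the reads of its group. Zfp637 per cell ran from 0 through 0 to 52.0 CPM against 0 through 52.6 to 303 CPM. Cells with a read numbered 6 and 19, and the pooled level of 4.80 against 67.4 CPM was 14.1-fold lower (11.1 to 18.1). With-MK cell 9 held 69.3% of its with-MK reads, and without the top cells it was 39.1-fold lower. For both genes the median with-MK cell had no read, and cells without a read were found in both groups.

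Zfp568, on chromosome 7, encodes a KRAB protein known to silence the placental promoter of Igf2 in the embryo. It ran from 0 through 0 to 182 CPM in with-MK cells, and 0 through 35.3 to 322 CPM in without-MK cells. Cells with a read numbered 4 and 17, with pooled levels of 11.4 and 65.4 CPM, 5.71-fold lower (4.86 to 6.76). With-MK cell 7 held 88.8% of the with-MK reads, so the ratio rests on that cell: without the top cell of each group its log2 ratio went from −2.51 to −5.40. Zfp386, on chromosome 12, had a read in 1 cell and 14 cells. All 640 of its with-MK reads lay in cell 8, at 677 CPM, while without-MK cells ran from 0 through 9.40 to 598 CPM. Its pooled level was 2.62-fold lower (2.39 to 2.89), and without the top cells it is a bound, a log2 ratio of −8.72. Both genes were thus absent from most with-MK cells and high in 1.

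The other Zfp genes called lower were Zfp35, Zfp46, Zfp51, Zfp65, Zfp141, Zfp142, Zfp148, Zfp260, Zfp276, Zfp277, Zfp382, Zfp407, Zfp472, Zfp507, Zfp598, Zfp623, Zfp653, Zfp672, Zfp703, Zfp704, Zfp746, Zfp930, Zfp935, Zfp950 and Zfp961. Zfp507, singled out after its values were seen, was the 1 gene of the 63 with no with-MK read. It had 417 reads in 8 without-MK cells, so its pooled level was at least 175-fold lower, with a floor of 3 reads over the group. A count of 0 in 20 cells allows a share of up to 15.0% of cells with a read, taking 3 cells as the limit (the exact interval ends at 16.8%).

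Zfp36l2 differs from these genes in what it encodes: its CCCH fingers bind AU-rich elements and speed the decay of messenger RNA. It lies on chromosome 17, 84183931 to 84187947, minus strand. With-MK cells ran from 0 through 1.88 to 199 CPM and without-MK cells from 0 through 113 to 366 CPM. Reads were present in 13 of 20 (65.0%, 40.8% to 84.6%) and 22 of 24 cells (91.7%, 73.0% to 99.0%). With 476 and 1319 reads its pooled level was 30.4 and 106 CPM, 3.49-fold lower (3.14 to 3.88). The other listed gene of its subfamily, Zfp36, encodes tristetraprolin and had the opposite direction, with 8978 reads over 20 cells against 281 reads over 14 cells, 25.4-fold higher. Zfp36l1 and Zc3h12a, which act on similar transcripts, are not listed.

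Of the 3 higher Zfp genes, each took most of its with-MK reads from 1 cell. Zfp516, on chromosome 18, encodes a C2H2 activator known from brown fat. It ran from 0 through 0 to 316 CPM against 0 through 0 to 30.2 CPM, was read in 8 and 9 cells, and had 491 (449 to 536) and 48 (35 to 64) reads. Its pooled level of 31.4 against 3.87 CPM was 8.12-fold higher (6.03 to 11.2), with 50.9% of the with-MK reads in cell 10, and 5.55-fold higher without the top cell of each group. Zfp292, on chromosome 4, encodes a large C2H2 protein and was read in 8 and 10 cells. Its pooled level of 87.7 against 32.6 CPM was 2.69-fold higher (2.40 to 3.01). Cell 10 held 66.7% of its with-MK reads, and without the top cells the ratio was 1.44 and the call was lost. Zfp90, on chromosome 8, was read in 7 with-MK cells and 1 without-MK cell, at pooled levels of 20.9 and 10.4 CPM, 2.01-fold higher (1.64 to 2.49). Cell 7 held 94.8% of its with-MK reads, 4 of the 7 cells had 3 reads or fewer, and the median over the 7 was 1.41 CPM. Leaving out the top cell of each group removes the only without-MK cell with a read. The 17 reads against 0 that remained therefore cannot test the call. The call of Zfp90 was lost with the reads of listed genes as the total, and where a read in at least 10 cells was required. Median cells of both groups had no read of Zfp516 or Zfp90.

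Zfp207, Zfp706 and Zfp655 were among the Zfp genes read in the most cells, and none of them was called. Zfp207 encodes BuGZ, which binds spindle microtubules and loads the checkpoint protein BUB3. It ran from 0 through 100 to 2055 CPM against 65.9 through 441 to 1492 CPM, in 19 and 24 cells, with a pooled ratio of 0.856 (0.828 to 0.885). Zfp706, which encodes a small C2H2 protein, ran from 0 through 65.9 to 1023 CPM against 9.51 through 101.5 to 788 CPM, in 18 and 24 cells, with a pooled ratio of 0.852 (0.803 to 0.903). Zfp655 was read in 18 and 23 cells, and ran from 0 through 378 to 4109 CPM against 0 through 305 to 1305 CPM. Its pooled level of 791 against 363.5 CPM was 2.18-fold higher (2.10 to 2.25), while its mean log2(CPM + 1) was lower, 6.63 ± 4.31 against 6.97 ± 3.03 (SD over 20 and 24 cells). With log2(CPM + 10) in its place, Zfp655 was called higher. Such a split, a higher pooled level with a lower mean over cells, was seen in 12 of the 63 genes, beside 18.3% of all genes. Zfp26 and Zfp281 had pooled ratios near 1, 0.954 (0.864 to 1.05) and 0.913 (0.839 to 0.994), although their cells with a read numbered 9 against 16 and 7 against 19. Median-ratio scaling turns the direction of both pooled ratios. With-MK cell 4 held 48.9% of the with-MK reads of Zfp281, and without the top cells its ratio was 0.601.

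Zc3h15 and Zc3h7a were read in most cells of both groups and were near level in pooled terms. Zc3h15 encodes DFRP1, which stabilises the GTPase DRG1. It ran from 0 through 19.2 to 1148 CPM against 0 through 91.4 to 264 CPM, in 16 and 23 cells. Its pooled ratio was 0.835 (0.771 to 0.903), but 53.8% of the with-MK reads lay in cell 15. Without the top cells its log2 ratio was −1.21, which would be called lower, and in thinned cells it was 0.07, on the other side of 0. Zc3h7a, the other gene of the family and an RNA-binding protein, was read in 17 and 21 cells and was lower in its mean over cells without being called.

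Of the 8 Zbtb genes 1 was called lower (12.5%, beside 28.9% of all genes) and 7 were not called. Their median log2 ratio of pooled levels was 0.55, while 6 of 8 were lower in mean log2(CPM + 1), with a median difference of −0.66, and 7 of 8 were read in a lower share of with-MK cells. Whether the families differ was not tested. Zbtb7a encodes LRF, a repressor that acts in blood cell lineages. Its level ran from 0 through 42.4 to 255 CPM in with-MK cells against 0 through 24.4 to 170 CPM in without-MK cells. It was read in 18 and 23 cells, and its pooled level of 69.1 against 43.1 CPM was 1.60-fold higher (1.44 to 1.78), under the 2-fold rule. Zbtb41 was the gene called lower. It was read in 1 with-MK cell, number 17, at 12.8 CPM, and in 15 without-MK cells, from 0 through 2.72 to 201 CPM over the group. Its 11 and 398 reads gave 0.703 and 32.1 CPM, 45.6-fold lower (25.2 to 92.0). Without the top cell of each group no with-MK read was left, and with a floor of 3 reads the log2 ratio was −6.91 or below. Zbtb1, Zbtb8os, Zbtb11 and Zbtb21 had higher pooled levels and lower means of log2(CPM + 1) in with-MK cells. Zbtb14 was lower on both scales, and Zbtb7b, which encodes the T cell factor ThPOK, was read in 6 with-MK and 2 without-MK cells with a pooled level slightly lower.

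Klf6 and Klf13 were read in 20 of 20 and 24 of 24 cells and held the highest reads of the 63 genes. Klf6 encodes a zinc finger factor known as an activator of inflammatory genes in macrophages. It lies on chromosome 13, 5861482 to 5870394, plus strand. Its level ran from 178 through 1122 to 2874 CPM in with-MK cells and from 108 through 560 to 1977 CPM in without-MK cells. The groups overlapped over most of that range, with the median with-MK cell above most without-MK cells. Its 20310 (20032 to 20591) and 8344 (8166 to 8525) reads gave 1299 and 672 CPM, 1.93-fold higher (1.88 to 1.98), just under the 2-fold rule. Its mean log2(CPM + 1) was 10.11 ± 1.07 against 9.15 ± 0.89 (SD over 20 and 24 cells), a difference of 0.95. Under median-ratio scaling, and on the deposited values, Klf6 was called higher. With the reads of listed genes as the total, its pooled log2 ratio fell from 0.95 to 0.69. Klf13, known as a regulator of the chemokine gene Ccl5 in T cells, lies on chromosome 7, 63886351 to 63938915, minus strand. It ran from 9.34 through 796 to 2689 CPM against 76.3 through 510 to 2231 CPM, and its pooled level of 1130 against 777 CPM was 1.45-fold higher (1.42 to 1.49). By that other total its pooled log2 ratio fell from 0.54 to 0.28. Its mean log2(CPM + 1) was 9.51 ± 1.84 against 9.08 ± 1.30, so the difference was smaller than the SD over cells in either group. Klf2, Klf3, Klf4, Klf7, Klf9 and Klf10 are not listed.

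**Figure D3:**
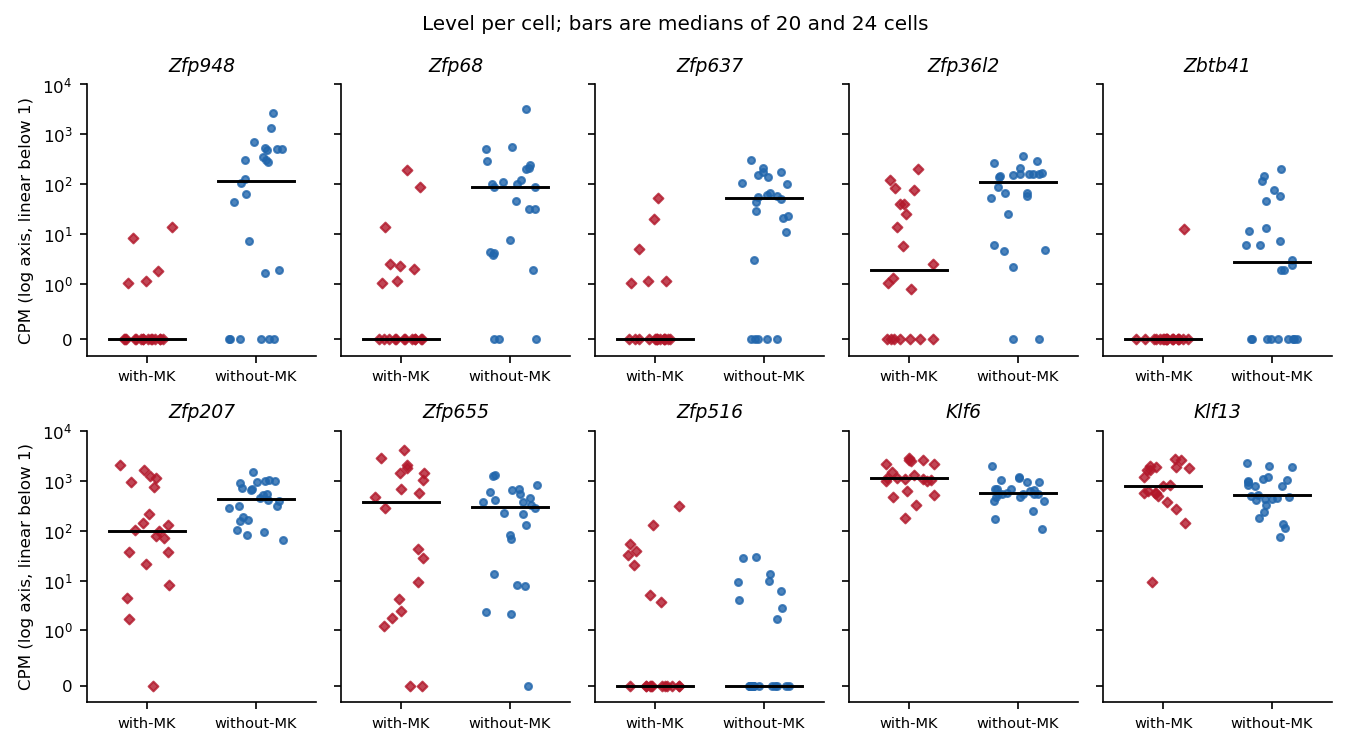
Level of 10 of the genes in each cell (y axis, CPM, logarithmic above 1 and linear below) for with-MK cells (red diamonds, n = 20) and without-MK cells (blue circles, n = 24), with bars at group medians. Zfp948, Zfp68, Zfp637 and Zbtb41 lie at 0 in most with-MK cells, while Klf6 and Klf13 are above 0 in every cell and overlap between the groups.

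Klf proteins bind GC boxes, so promoters were searched for the letters GGGCGG or CCGCCC, the same box on either strand. For the 2 Klf genes and for Zfp948 and Zfp68, a pair of the lower Zfp genes described above, shown are the 250 bases before the RefSeq gene start (GRCm38.p6), 5′ to 3′ on the gene's strand, with boxes in capitals: Klf6 at chr13:5861239-5861488, plus strand, Klf13 at chr7:63938916-63939165, minus strand, Zfp948 at chr17:21566728-21566977, plus strand, and Zfp68 at chr5:138619744-138619993, minus strand.
Klf6: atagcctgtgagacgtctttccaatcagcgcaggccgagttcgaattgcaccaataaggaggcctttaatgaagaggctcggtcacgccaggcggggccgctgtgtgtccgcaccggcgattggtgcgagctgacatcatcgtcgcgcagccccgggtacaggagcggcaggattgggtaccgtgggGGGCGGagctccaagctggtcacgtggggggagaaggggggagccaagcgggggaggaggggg
Klf13: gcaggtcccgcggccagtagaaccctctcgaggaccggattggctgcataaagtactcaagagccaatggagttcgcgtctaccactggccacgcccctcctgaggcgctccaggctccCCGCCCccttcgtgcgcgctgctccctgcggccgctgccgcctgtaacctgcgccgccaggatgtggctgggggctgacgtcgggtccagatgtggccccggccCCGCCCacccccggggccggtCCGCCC
Zfp948: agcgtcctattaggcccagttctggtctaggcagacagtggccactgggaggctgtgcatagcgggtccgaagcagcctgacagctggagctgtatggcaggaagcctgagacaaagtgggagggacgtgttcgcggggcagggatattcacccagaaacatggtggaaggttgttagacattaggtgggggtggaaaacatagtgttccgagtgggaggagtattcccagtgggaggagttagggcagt
Zfp68: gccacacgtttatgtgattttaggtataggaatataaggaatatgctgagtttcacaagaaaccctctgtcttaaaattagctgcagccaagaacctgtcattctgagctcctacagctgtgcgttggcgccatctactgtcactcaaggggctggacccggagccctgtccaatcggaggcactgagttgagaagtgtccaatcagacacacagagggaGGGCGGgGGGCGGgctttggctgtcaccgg
The window holds 1 box for Klf6, 3 for Klf13, 0 for Zfp948 and 2 for Zfp68, and 21, 24, 7 and 8 CpG dinucleotides.

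Of the 63 genes, 50 have a promoter in the RefSeq table, and 26 of these (52.0%) hold a GC box. Among all listed genes with a promoter 60.6% hold one, and of all 27025 RefSeq promoters 32.9% do. By family it was 16 of 38 Zfp, 6 of 8 Zbtb, 2 of 2 Zc3h and 2 of 2 Klf promoters. Among the genes called lower, 10 of 22 held a box, and among those not called 16 of 27. The median number of CpG was 14 over the 50, 12 in the lower genes, 15 in those not called, 17 in listed genes and 6 in all promoters. These are counts of letters in a window and say nothing of binding. A single RefSeq promoter was used per gene. For 43 of the 50, bases after its start were found near the start of an annotated transcript of that gene, and for the rest they were not.

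Low-level detection was common for these genes in both groups. Of the 1260 pairs of a gene and a with-MK cell 422 had a read (33.5%), and of 1512 pairs with a without-MK cell 834 had one (55.2%), against 57.5% and 67.2% over all listed genes. Of the pairs with a read, 117 (27.7%, exact interval 23.5% to 32.3%) and 150 (18.0%, 15.4% to 20.8%) had 3 reads or fewer, against 18.5% and 12.3% over all listed genes. In cells thinned to 270000 reads the shares at 3 reads or fewer were 23.0% and 23.3%, so the difference between the groups was not seen there. With all reads, a single read made up 17.5% and 9.47% of the pairs. Pairs of 1 gene or 1 cell are not independent, so these intervals are likely too narrow. Whether so few reads come from the cell itself was not tested.

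Where the genes were read, reads were often gathered in 1 cell. The cell with the most reads held at least 90% of the group's reads for 22 of the 63 genes in with-MK cells (34.9%, against 6.74% of all listed genes) and for 5 in without-MK cells (7.94%, against 4.29%). It held at least 50% for 43 and 19 genes (68.3% and 30.2%, against 31.2% and 14.7% of all listed genes). In with-MK cells 10 genes were read in exactly 1 cell, beside 100 of the 3588 listed genes with a read. In the same cells 50 genes (79.4%, against 43.5% of all listed genes) were read in at most 10 of 20 cells. In without-MK cells 29 genes (46%, against 29.2%) were read in at most 12 of 24 cells. Zfp207 and Zfp706, beside the Klf genes, were read in all 24. Levels where a gene was read were compared for genes read in at least 3 cells of each group, which leaves out those read in the fewest. Of the 42 genes that pass, 19 (45.2%) had a higher median over cells with a read in with-MK cells, beside 42.6% of the 3083 listed genes that pass. The median log2 ratio of those levels was −0.41, and −0.29 over all genes. No gene of the 63 had groups without overlap, beside 0.644% of all genes tested.

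Per cell, a median of 20.5 of the 63 genes had a read in with-MK cells, from 14 to 29 (SD 4.30), against 36 in without-MK cells, from 22 to 45 (SD 6.06). That is 32.5% and 57.1% of the 63 genes, where all listed genes gave 57.2% and 69.5%. In cells thinned to 270000 reads the medians were 17 (11 to 25) and 33.5 (22 to 44). The ranges overlapped, with the median without-MK cell above every with-MK cell. Across cells, the number of these genes with a read went with the number of listed genes with a read, with r = 0.78 and rho = 0.84 over 20 with-MK cells and r = 0.82 and rho = 0.81 over 24 without-MK cells. With library reads the values were r = 0.33 and rho = 0.43, and r = 0.56 and rho = 0.52. These are descriptions, since each point is a cell of 1 capture and the genes counted are among the listed ones.

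**Figure D4:**
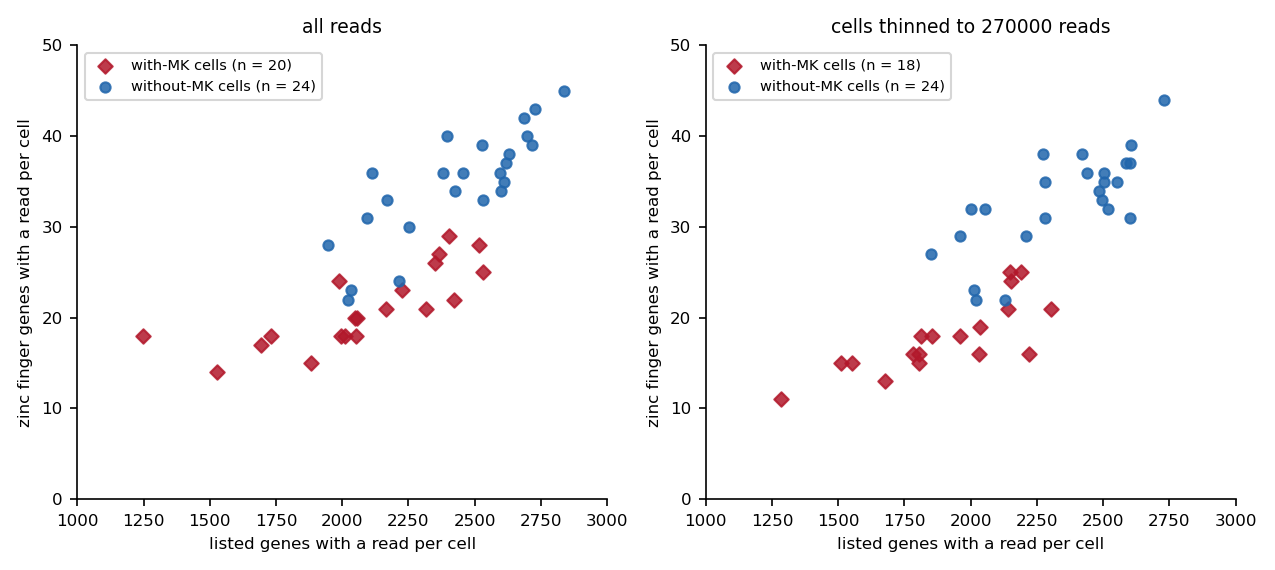
Number of the 63 genes with a read in each cell (y axis) against the number of all listed genes with a read (x axis), for all reads (left) and for cells thinned to 270000 reads (right), with-MK cells as red diamonds and without-MK cells as blue circles. Within each group cells with more listed genes read have more zinc finger genes read, and with-MK cells mostly lie lower, with medians of 20.5 and 36 at left.

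The summed level of the 63 genes overlapped between the groups. It had a median of 5274 CPM per with-MK cell, from 2845 to 13682, and of 5782 CPM per without-MK cell, from 3725 to 9221. With the reads of listed genes as the total the medians were 6746 and 8905 CPM, further apart. The families went in different directions: Zfp genes summed to 2032 CPM (224 to 6492) against 3413 CPM (2157 to 6084), and Klf genes to 2747 CPM (760 to 3836) against 1158 CPM (309 to 3023). The Zbtb sums were 532 CPM (83.8 to 3547) and 383 CPM (83.4 to 1752), and the Zc3h sums 55.8 CPM (0 to 1148) and 199.5 CPM (0 to 798). The median Klf sum, of 2 genes, thus exceeded the median Zfp sum, of 51 genes, in with-MK cells and was below it in without-MK cells. CPM is not corrected for transcript length, so these sums weigh long transcripts more.

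**Figure D5:**
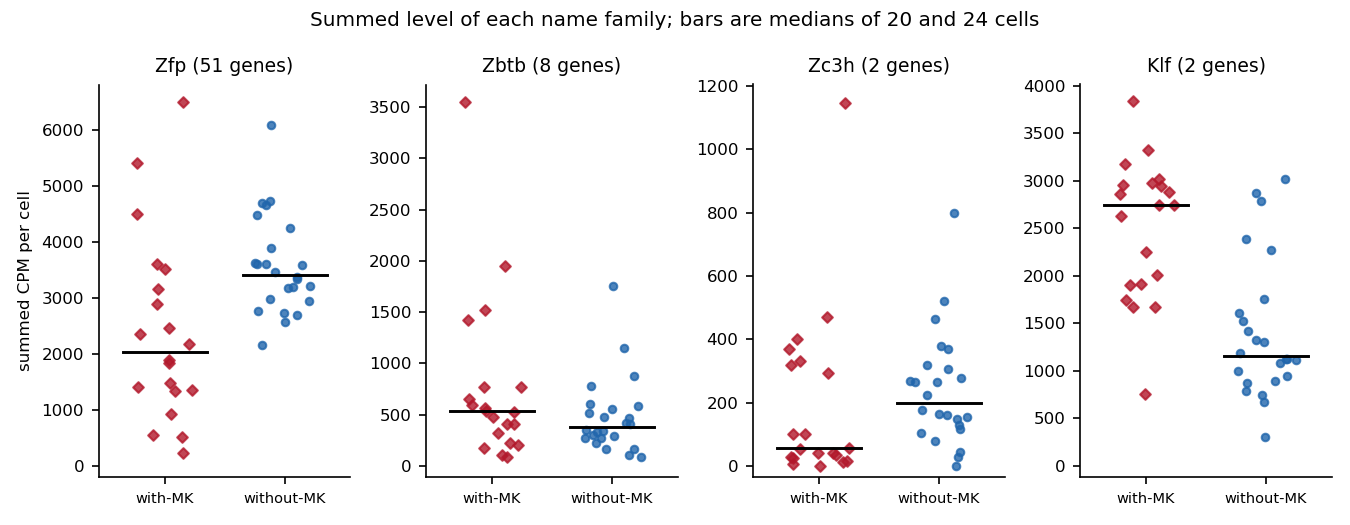
Summed CPM per cell (y axis, linear, a scale of its own in each panel) of the Zfp, Zbtb, Zc3h and Klf genes in with-MK cells (red diamonds, n = 20) and without-MK cells (blue circles, n = 24), with bars at group medians. The bar is lower in with-MK cells for Zfp genes, at 2032 against 3413 CPM, and higher for Klf genes, at 2747 against 1158 CPM, and the groups overlap in each panel.

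Genes in genomic arrays were read in fewer cells of both groups. Of the 63 genes, 17 lie within 500 kb of at least 3 other annotated genes with such names, as KRAB zinc finger genes in tandem arrays do. All 17 are Zfp genes, and 0 were higher, 13 lower (76.5%) and 4 not called, beside 23.4% higher and 28.9% lower over all genes. Their median log2 ratio was −2.99, and the medians of cells with a read were 2 and 7. The other 34 Zfp genes held 3 higher, 18 lower (52.9%) and 13 not called, with a median log2 ratio of −1.06 and medians of 6 and 15.5 cells. Of the 13 lower genes in arrays 7 were read in fewer than 10 of the 44 cells (Zfp51, Zfp65, Zfp141, Zfp382, Zfp653, Zfp930 and Zfp961), which leaves 6 lower of 8 where 10 cells are required, beside 16 of 29 other Zfp genes. Listed neighbours within the window were Zfp51 and Zfp948 on chromosome 17, Zfp260, Zfp382 and Zfp568 on chromosome 7, and Zfp653 and Zfp809 on chromosome 9. All of them but Zfp809 were called lower. Genes of such arrays resemble each other in sequence, so how the authors' counting shared reads among them is uncertain. Exons of 24 of the 63 genes overlap an exon of another annotated gene, a protein-coding one for 10. Among the named genes, exons of Zfp26, Zfp36l2, Zfp68, Zfp90 and Zfp706 overlap those of genes that are not protein-coding. The 10 with a protein-coding overlap are Zbtb8os, Zbtb11, Zbtb21, Zfp91 and Zfp597, and the lower genes Zfp142, Zfp276, Zfp653, Zfp935 and Zfp961. The counting is not given, so reads of such genes are uncertain too.

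Genes that work with these families, and other zinc finger genes, are counted in 5 lists, to be read beside the 23.4% higher and 28.9% lower over all genes. Of 24 genes for KRAB corepressors and heterochromatin, 11 are listed, and Trim28 and Setdb1 are not among them. By the 2-fold rule 0 of the 11 were higher, 5 lower (45.5%) and 6 neither, with a median log2 ratio of −0.73. The lower ones were Cbx5, which encodes the heterochromatin protein HP1 alpha and was 2.20-fold lower in 13 against 23 cells, the methyltransferase gene Suv39h2, the HUSH subunit gene Pphln1, the remodeller gene Smarcad1 and the deacetylase gene Hdac2. Of 23 cofactor genes of BTB and Klf proteins, 11 are listed, with 4 higher (36.4%), 3 lower (27.3%, near the share of all genes) and 4 neither and a median of −0.06. The higher ones were Tbl1xr1 and Gps2, which encode parts of the NCOR corepressor complex, at 6.38-fold and 4.51-fold, and the factor genes Mef2a and Mef2c. The lower ones were Sin3a, Ctbp1 and Kat2a.

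Among 57 genes of messenger RNA decay and nuclear RNA surveillance, 22 are listed, with 3 higher (13.6%), 5 lower (22.7%) and 14 neither and a median log2 ratio of −0.10. Both shares are below the 23.4% and 28.9% over all genes. Higher were Btg1, which encodes a CCR4-NOT partner, at 5.03-fold with reads in every cell, the protease gene Malt1 and Cnot3. The CCR4-NOT genes Cnot1, Cnot4 and Cnot10, the poly(A)-binding protein gene Pabpc1 and the exosome gene Exosc4 were lower. Of 78 other zinc finger transcription factor genes 11 are listed, with 2 higher (18.2%), 6 lower (54.5%) and 3 neither and a median of −1.05, beside 23.4% and 28.9% over all genes. Ikzf1, which encodes the blood lineage factor Ikaros, had 963 reads over 12 with-MK cells but no read in any without-MK cell, at least 255-fold higher with a floor of 3 reads, and Rreb1 was 50.1-fold higher. The lower ones were Egr1, Yy1, Glis2, Zfhx3, Mynn and Repin1. Of 40 other CCCH genes 16 are listed, with Zfp36 higher, 6 lower (37.5%) and 9 neither and a median of −0.82. Pan3 is counted there and also among the messenger RNA decay genes.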

How the data were processed

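Single cells were captured on a C1 chip and sequenced after SMART-Seq cDNA synthesis and Nextera XT library preparation, per the labels. Per the submitters' processing notes, the build was mm10 and Seurat was among the tools. The aligner, the counter and the gene models were not given in the sources used here. The deposited values are a signal, worked out from the values to be reads × 1e+09 divided by the cell's library reads and by a whole number fixed for each gene. The form is not stated by the authors. All 99807 values above 0 gave whole reads at a tolerance of 0.0001, with the smallest whole divisor that fits, so reads of genes read in few cells may be understated. Ratios of pooled levels and the presence of a read do not depend on the divisor, but counting intervals and floors do. So do CPM levels and their sums over genes, and means over cells on the log scale, which the calls also use. Counts at a CPM limit, shares of pairs with few reads and results in thinned cells depend on it too. For genes read in few cells these values are therefore uncertain. The design assumed read counts; since whole reads were recovered, their sums are the main values, and no count model was fitted. CPM is reads × 1e+06 / library reads.

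Cells were grouped by the treatment field. Shares have exact Clopper-Pearson 95% intervals, sums exact Poisson and ratios of sums exact binomial 95% intervals. A group with 0 reads was set at a floor of 3 reads, and genes with over 3 reads in a group were called by the 2-fold rule. Thinning drew 270000 reads per cell. No cell was removed or clustered, and no doublet caller was run on 44 cells. The marker genes and the 11 gene lists are written by hand. Named with values were Zfp36l1, Zfp36l2, Zc3h12a, Zbtb7a, Zbtb20, Klf2, Klf3, Klf4, Klf6, Klf7, Klf9, Klf10 and Klf13 where listed, the 6 highest and 6 lowest differences in mean log2(CPM + 1) per family among called genes, the 5 genes read in the most cells and the 5 with a pooled ratio nearest 1 among those read in at least 22 cells. The genes and lists were chosen with earlier results of these data known. The position window, exon overlaps, promoter letters and top-cell counts were added after the data were seen. Positions are from GENCODE on GRCm38 and promoters from RefSeq. Protein sequences and numbers of fingers were not analysed here. The calling code was tested on simulated data. Python 3.11.15, numpy 2.4.6, pandas 2.3.3 and scipy 1.17.1 were used.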

Additional observations from a re-analysis of the deposited data

How the results depend on the processing

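Over 9 alternatives the number of genes called lower ran from 23 to 38, beside 32, and stayed above the number called higher in each. Over all genes the same order held in each alternative but the 4-fold rule. With a read in at least 10 cells required, 23 of 48 genes were lower, beside 28.2% of all genes. At 4-fold it was 23 of 63, beside 14.8%, and with the reads of listed genes as the total 33 of 63, beside 33.9%. With log2(CPM + 10) 5 genes were higher, all Zfp and with Zfp626 and Zfp655 gained, and at 4-fold 1 was. Leaving out the top cell of each gene in each group made 2 Zbtb genes lower. It raised the lower calls to 38 of the 60 genes left with enough reads, with 31 of the 32 shared. Over all genes it raised the share called lower to 38.4%. Counting only levels of at least 10 CPM, the median number read per cell was 14.5 and 26. With reads of the listed genes as the total, the summed level had medians of 6746 and 8905 CPM. The share of pairs at or below 10 reads was 37.7% and 33.2%; in thinned cells the share at or below 3 was 23.0% and 23.3%, so the group difference in low counts was not seen there. Median-ratio scaling moved log2 ratios by 0.16, turned Zfp26 to 0.09 and Zfp281 to 0.03, lost the calls of Zfp148 and Zfp277, and made Klf6 higher. Thinning turned Zc3h15 to 0.07. Of the 18 named genes, 9 moved by over 1.5-fold without their top cells. No paired analysis was possible because the numbers in the titles only name cells and no test between groups was made. Depth limits the genes read in few cells.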
